A study of Mus musculus with 12 samples.

Results

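The alpha cells that carried both green and red reporter signal (group B) were compared with the cells sorted as non-alpha (group N) across all genes of the embryonic mouse pancreas. The members were chosen by sample title alone, which gave 4 B and 4 N libraries of the 12 in the series. All libraries came from Gcg-Timer embryos at E17.5, a mouse line with a fluorescent Timer reporter tied to Gcg, the glucagon gene, so the N cells carried the reporter allele as well. Pancreata were dissociated and sorted by their fluorescence, and the 4 replicates of each group came from different mothers. The labels call B more differentiated alpha cells. The other 4 libraries (group A) hold green dominant cells, called newly generated alpha cells, and served here for the shared estimate of spread and as a second set of values beside B. N is a mixture of all cells outside the reporter gates, and the labels do not give the sex or the number of embryos pooled per library.

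Alpha cells are endocrine cells of the pancreatic islets that cleave proglucagon to glucagon, store it in dense-core granules and release it when glucose is low. They arise, as the other islet cells do, from Neurog3-expressing progenitors of the pancreatic epithelium. At the end of gestation most pancreatic cells are exocrine acinar cells, which make digestive enzymes, and duct cells, mesenchyme, vessels and blood cells lie around them.

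Total counts ranged from 16216967 to 24259218 in B and from 32114292 to 38545756 in N, so N was sequenced more deeply. The 10 most abundant genes took 9.46% to 12.4% of counts in B and 27.2% to 35.7% in N. Levels are given as CPM, that is normalised read counts scaled to the TMM library size, in the order of replicates 1 to 4. Changes are log2 changes of B minus N with their standard error (SE), and a gene was called at an edgeR adjusted p under 0.05. Genes with near-identical copies (the insulin pair, the adult alpha and beta globin pairs, the Serpina1 and amylase copies) may share reads, so their separate values are uncertain. In bulk samples fewer cells of a type and less RNA per cell cannot be told apart.

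Promoters of 3 genes show the ends of the comparison. Gcg is the gene that the sort was built on, Irx2 is a transcription factor gene among the highest in B, and Hbb-bs, an adult beta globin gene, is among the lowest. Each sequence holds the 250 bases before the start of the gene in RefSeq (GRCm38.p6), on the strand of the gene, with any match to TATAAA or AGATAA or their reverse complements in capitals.
Gcg, chr2:62483654-62483903, minus strand: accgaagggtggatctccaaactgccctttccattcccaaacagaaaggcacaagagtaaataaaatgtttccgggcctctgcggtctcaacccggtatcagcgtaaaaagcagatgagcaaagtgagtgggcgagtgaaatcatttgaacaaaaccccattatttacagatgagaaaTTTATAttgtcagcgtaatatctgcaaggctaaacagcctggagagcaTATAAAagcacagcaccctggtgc
Irx2, chr13:72628570-72628819, plus strand: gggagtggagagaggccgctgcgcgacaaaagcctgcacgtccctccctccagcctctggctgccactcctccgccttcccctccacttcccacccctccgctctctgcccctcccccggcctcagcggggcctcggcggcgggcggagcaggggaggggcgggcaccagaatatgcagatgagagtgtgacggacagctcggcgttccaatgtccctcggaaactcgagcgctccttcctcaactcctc
Hbb-bs, chr7:103827929-103828178, minus strand: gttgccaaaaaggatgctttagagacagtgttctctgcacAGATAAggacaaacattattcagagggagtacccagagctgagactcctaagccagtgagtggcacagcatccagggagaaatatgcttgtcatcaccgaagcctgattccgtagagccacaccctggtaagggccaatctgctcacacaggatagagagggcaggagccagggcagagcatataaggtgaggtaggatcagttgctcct
TATAAA began 24 bases before the Gcg start and its reverse complement, TTTATA, 72 bases before it. The Irx2 stretch held neither motif in either direction. AGATAA, letters that GATA factors bind, began 210 bases before the Hbb-bs start. Of the 12438 tested genes matched to a promoter in the table, out of 17216 with a unique symbol, 6.92% held TATAAA and 6.43% held AGATAA on either strand in the same window. Under 80% of genes were matched, so a split of these motif shares by call, though computed, is void and not given.

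Gcg (ENSMUSG00000000394.16, chromosome 2, 62304874 to 62313994 in GRCm39) stood at 35193, 31228, 34864 and 47667 CPM in B and at 99.8, 142, 99.4 and 66.2 CPM in N. Every B library was far above every N library (log2 change 8.52, SE 0.35). The sort used a reporter tied to Gcg, so this difference followed from the gates and a test of it gives no support. The reporter sequences followed the gates by design, and mRFP1 averaged 4208 ± 211 CPM (SD, n = 4) in B against 2.64 ± 1.55 CPM in N. By deposited TPM, which are per length and allow genes to be ordered, Gcg was the most abundant transcript of B at 74844 ± 16680 (SD, n = 4). The next endogenous genes were Pyy, which encodes peptide YY, at 13774 ± 1492 TPM and the digestive enzyme gene Amy2a1 at 12769 ± 5775 TPM. Those spreads overlapped, so the order of Pyy and Amy2a1 was not resolved. Digestive enzyme genes held 5 of the 15 highest ranks in B, and B replicate 2 was the highest B library for each of these 5.

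The labelled cell types were checked against markers. The alpha cell markers Irx1 and Irx2 were higher in B than in N, and so, through the sort itself, was Gcg. The alpha identity genes as a whole took 4.65% to 6.85% of counts in B, 2.08% to 3.33% in A and 0.0515% to 0.0617% in N. Gcg, the gene that the sort was built on, made up most of this in B and A, at 3.43% to 5.43% and 1.42% to 2.47%. Acinar genes took 2.31%, 4.71%, 2.51% and 1.9% of counts in B and 13.3%, 8.13%, 11.5% and 14% in N. The acinar share of B did not overlap that of N and overlapped that of A, which ran from 3.37% to 5.6%. Mesenchymal genes took 0.0501% to 0.16% in B, 0.308% to 1.22% in A and 0.925% to 2% in N, so that B lay below both other groups. Endothelial genes took 0.00371% to 0.00995% in B against 0.0593% to 0.0821% in N, and macrophage and leukocyte genes 0.00779% to 0.0141% against 0.0731% to 0.083%. Both of these shares were also below the whole range of A. Erythroid genes took 9.93%, 23%, 19% and 6.15% of counts in N and 0.028% to 0.0942% in B, so the blood content of N varied widely among its libraries. The beta cell genes did not separate the groups, with 0.496% to 0.562% in B and 0.325% to 0.692% in N, and B lay below the 0.66% to 2.36% of A. These shares carry no test, and the difference between B and A was not tested here.

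**Figure D1:**
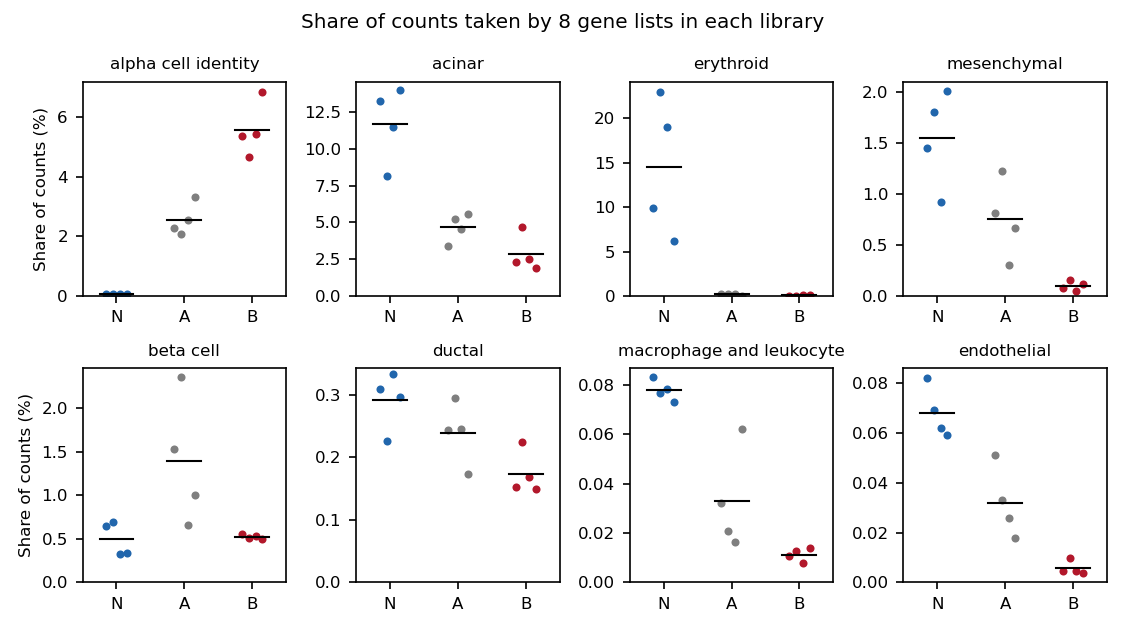
Share of all counts (percent, linear axis from 0) taken by 8 gene lists in each of the 4 libraries of N, A and B; points are libraries and bars are group means. Alpha identity genes stand at 4.65% to 6.85% in B, while acinar genes keep 1.9% to 4.71% of counts in B and erythroid genes reach 6.15% to 23% only in N.

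Most genes differed between these populations. Of 17230 genes tested, 5118 were higher and 5257 lower in B, together 60.2% of the genes tested, with 29.7% higher and 30.5% lower. Past a 4-fold change, 1247 genes were higher and 2492 lower, and past a 16-fold change 295 and 934. All 4 B libraries lay above all 4 N libraries for 4963 genes, or 28.8%, and below them for 5085 genes, or 29.5%. Of 1110 long noncoding RNA genes tested, 296 were higher and 176 lower. The balance rests on the scaling. With library totals alone and no factors, the median change of all genes moved up by 0.54 and 8263 genes were higher and 3407 lower, so that higher genes made up 70.8% of calls in place of 49.3%. With a fold change over 2 as the hypothesis tested, 1760 genes were higher and 2724 lower.

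**Figure D2:**
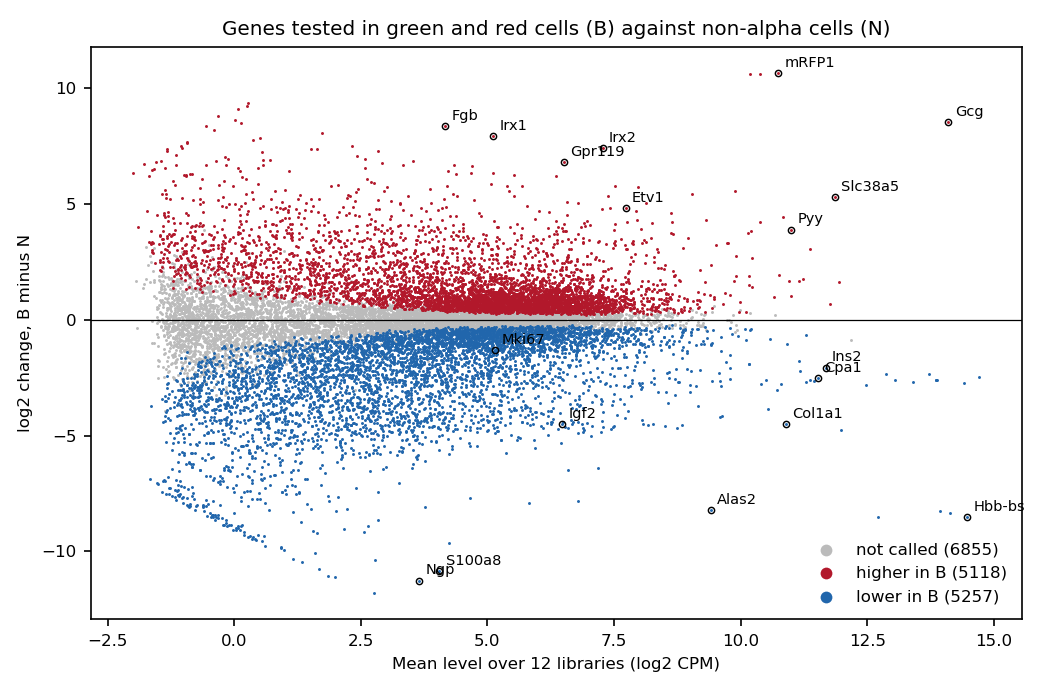
Log2 change of B minus N (vertical axis) against the mean level over 12 libraries (log2 CPM) for the 17230 genes tested, coloured by call, with 18 genes named. Gcg stands at 8.52 and Hbb-bs at -8.53; the slanted streaks at the low edge are genes with no or almost no counts in one group, whose fitted changes have no fixed size.

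Among the endogenous genes named for the largest changes, Gcg was followed by Fgb, Irx1, Irx2, Cpb2, Gpr119, Galnt13, Serpina1a and Ndst4. Irx1 stood at 69.8, 59.9, 50.8 and 79.3 CPM in B and at 0.181, 0.633, 0.229 and 0.0641 CPM in N (log2 change 7.91, SE 0.42, edgeR adjusted p = 6.25e-09). Its change was 8.68 without N replicate 2, the N library where it was highest. Irx2 stood at 313, 257, 279 and 295 CPM in B and at 1.99, 1.66, 1.99 and 1.15 CPM in N (log2 change 7.40, SE 0.23). These Iroquois homeobox genes were very low in the N mixture but not in A, where they averaged 38.3 and 176 CPM. They were the only 2 of 6 Irx genes with enough counts to be tested. Ndst4, a heparan sulfate modifying enzyme, stood at 28.9 to 52.7 CPM in B and 0.198 to 0.84 CPM in N.

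Of 16 alpha identity genes, 15 were higher in B, none was lower, and the median change was 5.06 against -0.03 for all genes tested. The 15 include Gcg, on which the sort was built. Etv1, an ETS family factor, stood at 412, 372, 372 and 418 CPM against 12.9, 14.8, 14.9 and 13.1 CPM (log2 change 4.82, SE 0.16). Every B library was above every N library for Etv1, with an edgeR adjusted p of 1.79e-10. Gc, the vitamin D binding protein gene, was the member not called, at -0.80, and it was called lower in other settings, among them RLE factors, DESeq2 and the fits without A replicate 1 or N replicate 2.

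Transcription factors of islet cells were higher in B in 17 of 20 tested, with none lower and a median of 2.30. Isl1 stood at 555, 520, 613 and 497 CPM in B and at 34.8, 38.6, 54.4 and 36.2 CPM in N (log2 change 3.74, SE 0.20, edgeR adjusted p = 6.24e-09). Pax6 changed by 3.41 (SE 0.17) and Rfx6 by 2.94 (SE 0.17). These changes were smaller than those of Irx1 and Irx2. Mlxipl and Mnx1 were among the members not called, at 0.04 and -0.27. Among the Fox family, Foxo1 was the most clearly higher member (log2 change 1.31, SE 0.13), while Foxf1, a mesenchymal factor, was lower.

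**Figure D3:**
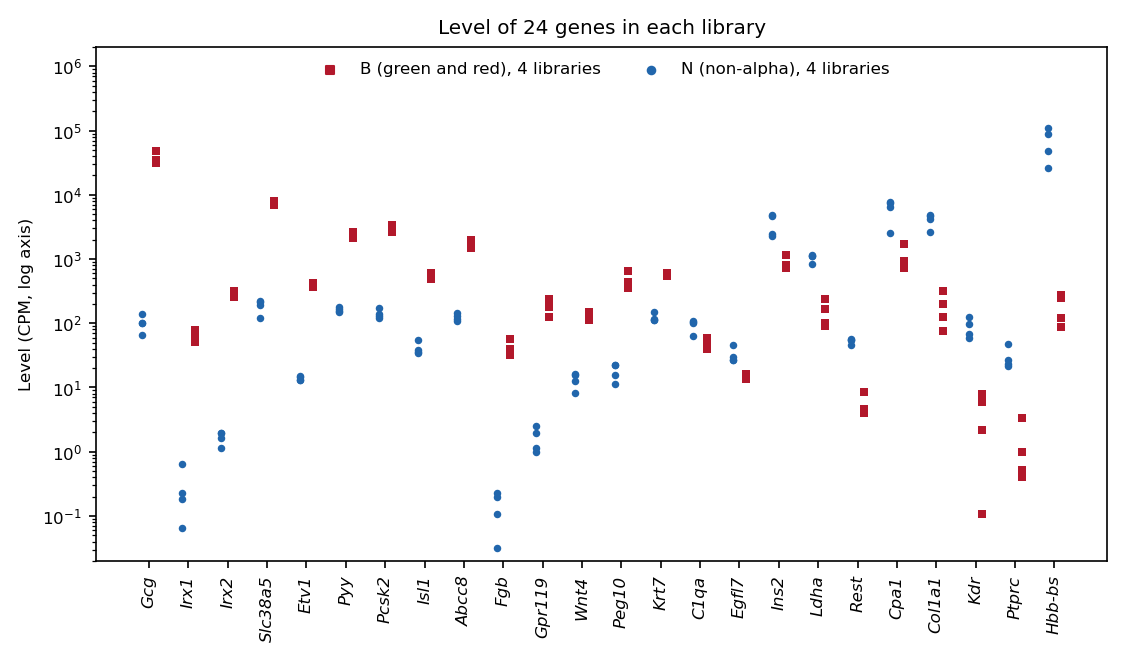
Level of 24 genes (CPM, log axis) in each of the 4 N libraries (circles) and the 4 B libraries (squares). Groups do not overlap for any gene shown; Gcg to Krt7 are higher in B and C1qa to Hbb-bs lower, and C1qa and Egfl7 lie closest together.

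The machinery of hormone processing and storage was higher in B. Of 20 secretory granule genes, 19 were higher and 1 lower, with a median of 2.90. Pcsk2, the convertase that releases glucagon from its precursor, stood at 3395, 2634, 2698 and 3292 CPM in B and at 170, 141, 131 and 123 CPM in N (log2 change 4.41, SE 0.18, edgeR adjusted p = 8.86e-10). Vgf, a granule protein, changed by 4.81 (SE 0.30), and Cpe, the carboxypeptidase that trims prohormones, by 3.05. Nucb2, the precursor of nesfatin, was the member that fell, with 41.7, 82.4, 53.5 and 35.6 CPM in B and 196, 97.3, 191 and 203 CPM in N (log2 change -1.69, SE 0.27). The groups lay close to each other at replicate 2, where B was highest and N lowest.

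Of 16 genes of the exocytosis machinery, 15 were higher and none lower, with a median of 2.56. Snap25, a SNARE protein of granule fusion, stood at 75.2, 60, 63.6 and 57.1 CPM in B and at 8.89, 10, 11.7 and 8.72 CPM in N (log2 change 2.70, SE 0.14). Of 20 synaptotagmin genes, 13 were higher and 5 lower, with Syt13 and Syt7 among the higher and Sytl4 among the lower. The vacuolar proton ATPase acidifies granules, and 15 of its 18 subunit genes were higher and 1 lower, with a median of 0.84. Atp6v0e2 stood at 108, 99.2, 102 and 110 CPM in B and at 14.6, 14.2, 14.1 and 13.6 CPM in N (log2 change 2.89, SE 0.11). The lower member, Atp6v0a2 at -0.42, was no longer called without B replicate 1, B replicate 4, N replicate 1 or N replicate 3.

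Ion channels of excitable endocrine cells were mostly higher, with 14 of 19 higher, 3 lower and a median of 1.90. Abcc8, the sulfonylurea receptor subunit of the ATP-sensitive potassium channel, stood at 1949, 1576, 1460 and 1646 CPM in B and at 144, 114, 131 and 109 CPM in N (log2 change 3.73, SE 0.17, edgeR adjusted p = 1.79e-09). Kcnh6, a voltage-gated potassium channel, changed by 4.11 (SE 0.20). Over whole families, 12 of 18 calcium channel genes were higher and 2 lower, while of the 66 potassium channel genes 31.8% were higher and 30.3% lower, close to the 29.7% and 30.5% of all genes tested. The lower calcium channels were the T-type genes Cacna1g (log2 change -2.39, SE 0.51) and Cacna1h.

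Of 20 hormone and neurotransmitter receptors, 13 were higher and 4 lower, with a median of 1.49. Gpr119, a lipid receptor, stood at 242, 186, 124 and 177 CPM in B and at 1.95, 2.53, 1.15 and 0.993 CPM in N (log2 change 6.79, SE 0.32, edgeR adjusted p = 2.63e-09). Ffar1, a fatty acid receptor, changed by 3.43 (SE 0.17) and Gipr, the receptor of the incretin GIP, by 1.67 (SE 0.30). The receptor of glucagon itself, Gcgr, fell by 1.28 (SE 0.49, edgeR adjusted p = 0.0357), at 0.996 ± 0.113 CPM in B (SD, n = 4) and 2.42 ± 1.8 CPM in N. Glp1r was not called, at 9.69 ± 3.95 against 15.2 ± 6.54 CPM. Without B replicate 1, 2 receptors in place of 4 were lower.

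Hormone genes of the other islet cells divided into those higher and those lower in B. Of 9 genes of delta, PP and epsilon cells, 6 were higher and 1 lower, with a median of 2.55. Summed, the list took 0.465% to 0.589% of counts in B, below the 0.619% to 0.824% of A, a difference that was not tested. Pyy stood at 2405, 2090, 2681 and 2359 CPM in B and at 179, 164, 153 and 148 CPM in N (log2 change 3.89, SE 0.15, edgeR adjusted p = 6.6e-10). Ghrl, the ghrelin gene, stood at 124, 132, 240 and 149 CPM against 11.8, 21.9, 22.2 and 21.6 CPM (log2 change 3.06, SE 0.25), and Ppy, the pancreatic polypeptide gene, changed by 2.55 (SE 0.26). Sst, the somatostatin gene, was not called, at 138 ± 47.3 CPM in B and 181 ± 30 CPM in N, and Hhex, a delta cell factor, was the lower member.

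Of 16 beta cell genes, 6 were higher and 7 lower (37.5% and 43.8%, against 29.7% and 30.5% of all genes tested). Their median of -0.49 turned to 0.06 with library totals alone. Ins2 stood at 766, 1148, 729 and 798 CPM in B and at 4932, 4708, 2438 and 2302 CPM in N (log2 change -2.06, SE 0.46, edgeR adjusted p = 0.00152). Every B library was below every N library, and N replicates 1 and 2 were well above N replicates 3 and 4. Iapp, the amyloid polypeptide gene, went the other way, with 3393, 2528, 3099 and 2778 CPM in B and 838, 1636, 532 and 503 CPM in N (log2 change 1.75, SE 0.32). Nkx6-1, a beta cell factor, was higher (log2 change 1.07, SE 0.17), Mafa was lower, at 3.36 ± 0.67 against 13.4 ± 3.27 CPM, and Pdx1 was not called at 0.21, though it was called higher with library totals alone.

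Of 14 endocrine progenitor genes, 5 were higher and 5 lower, 35.7% each way and not far from the 29.7% and 30.5% of all genes tested, with a median of -0.40 that turned to 0.15 with library totals alone. Fev, a factor of late endocrine precursors, changed by 3.72 (SE 0.29). Hes1, a Notch target that holds back endocrine fate, stood at 10, 13.9, 8.99 and 11.3 CPM in B and at 40.3, 45.4, 40.8 and 42.9 CPM in N (log2 change -1.94, SE 0.19, edgeR adjusted p = 1.74e-06). Neurog3 stood at 16.1 ± 10.8 CPM in B (SD, n = 4) and 35 ± 16.9 CPM in N and was not called (log2 change -1.12, edgeR adjusted p = 0.0817). It was called lower with the replicate block (edgeR adjusted p = 0.00332), with no filter (adjusted p = 0.0434) and without B replicate 3 (adjusted p = 0.0204).

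Of 15 amino acid transporters tested, 4 were higher and 6 lower (26.7% and 40%, against 29.7% and 30.5% of all genes tested), and the median of -0.29 turned to 0.25 with library totals alone. Slc38a5, a glutamine transporter, had the largest change, with 7590, 6854, 8014 and 7011 CPM in B and 212, 122, 220 and 193 CPM in N (log2 change 5.30, SE 0.23, edgeR adjusted p = 1.45e-09). Slc7a14 changed by 4.17 (SE 0.14) and Slc7a2, a cationic amino acid transporter, by 3.36 (SE 0.19). Slc38a1, Slc1a5 and Slc7a11 were lower, at -2.50, -2.43 and -2.73. Summed, the list took 0.902% to 1.07% of counts in B and 0.0838% to 0.134% in N, and Slc38a5 alone made up most of the sum in B.

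In glucose metabolism, 5 of 25 genes were higher and 14 lower (20% and 56%, against 29.7% and 30.5% of all genes tested). The median was -0.52. With library totals alone a further entry of a member symbol was counted, and of these 26 entries 10 were higher and 9 lower, with a median of 0.10. Over the same 26 entries the median with TMM factors was -0.44. Hk1, the high-affinity hexokinase, stood at 3.15, 5.7, 4.57 and 2.22 CPM in B and at 48.2, 46, 45 and 48.7 CPM in N (log2 change -3.58, SE 0.24, edgeR adjusted p = 5.67e-08). Every B library was below every N library for Hk1. Fbp1, an enzyme of gluconeogenesis, was higher (log2 change 3.19, SE 0.26).

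Ldha, lactate dehydrogenase A, stood at 99.7, 240, 166 and 92.1 CPM in B and at 1159, 834, 1123 and 1133 CPM in N (log2 change -2.83, SE 0.27, edgeR adjusted p = 1.29e-06). Slc16a1, a lactate and pyruvate carrier, fell by 2.99 (SE 0.15) and Cat, catalase, by 3.03 (SE 0.23). These belong to the disallowed genes, a set named for its low expression in beta cells of the islet, and all 14 tested were lower, with a median of -3.01. Of 26 nuclear genes of the respiratory chain, 6 were higher and 3 lower (23.1% and 11.5%, against 29.7% and 30.5% of all genes tested). Their median was 0.18. With library totals alone 20 were higher and none lower, and with RLE or upper quartile factors 3 were higher and 4 lower. Only 3 were higher without B replicate 2, and 1 was lower without B replicate 4 or N replicate 2. The highest of these changes, for Ndufa1, was 0.82.

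Genes best known from the liver were among those with the largest rises from N to B. Of 15 liver-type plasma protein genes tested out of 18 on the list, 9 were higher and 2 lower, with a median of 1.68. Summed, the list took 0.193% to 0.314% of counts in B and 0.138% to 0.22% in A, so B and A overlapped. Fgb, the fibrinogen beta chain, stood at 56.9, 39.4, 32.3 and 57.7 CPM in B and at 0.108, 0.198, 0.229 and 0.032 CPM in N (log2 change 8.36, SE 0.65, edgeR adjusted p = 2.38e-07). The other fibrinogen chains, Fga and Fgg, did not pass the filter on low counts. Serpina1a, a protease inhibitor with near-identical copies, stood at 26.1, 18.3, 15.4 and 22.2 CPM against 0.289, 0.0396, 0.229 and 0.224 CPM (log2 change 6.66, SE 0.44). Apoh had 83 counts in B and none in N, which makes it at least 31.1-fold higher with a floor of 3 counts over the N group. Apoe was the lowest member, at -3.28.

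Retinoid handling showed 2 genes higher and 10 lower of 13 tested, with a median of -2.31. The higher members were Bco1, a carotenoid oxygenase (log2 change 5.84, SE 0.28), and Rbp4, the retinol carrier (log2 change 3.84, SE 0.16, at 1651 ± 144 CPM in B). Aldh1a2, a retinoic acid synthesis enzyme of mesenchyme and mesothelium, was the lowest, at -4.43 (SE 0.49). Summed over its members, the list took a larger share of counts in B, 0.187% to 0.224% against 0.0264% to 0.0308% in N, although most of its genes were lower. Rbp4 alone made up most of the sum in B. The mesenchymal share of counts, given above, was lower in B, and its part in the lower genes was not tested.

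Most Notch and Hippo pathway genes were lower in B. Of 19 Notch pathway genes, 14 were lower and 2 higher, with a median of -1.94. Notch3, a receptor of mural cells, stood at 1.3, 1.95, 1.57 and 2.43 CPM in B and at 55.1, 55, 29.3 and 51.7 CPM in N (log2 change -4.73, SE 0.33, edgeR adjusted p = 8.65e-08). The higher members were Dll3, a ligand-like inhibitor (log2 change 2.86, SE 0.47), and Mfng, a glycosyltransferase that modifies the receptors, at 0.73. Notch1 fell by 0.75 and was not called with library totals alone.

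Of 13 Hippo pathway genes, 11 were lower and none higher, with a median of -2.39. Yap1, the transcriptional effector, stood at 1.93, 4.87, 2.46 and 2.33 CPM in B and at 25.5, 22.8, 20 and 26 CPM in N (log2 change -3.02, SE 0.32, edgeR adjusted p = 3.45e-06). Its partner Wwtr1 fell by 3.40 (SE 0.29) and the target Ccn1 by 3.30 (SE 0.29). Of 15 genes of FGF and ERK feedback, 10 were lower and 2 higher, with a median of -1.68. The inhibitors Spred1 and Dusp6 fell by 2.68 and 2.39, and Etv1 and Dusp4 were the higher members. Summed over this list the direction was the opposite, with 0.059% to 0.0657% of counts in B and 0.0388% to 0.0472% in N. Etv1 alone made up most of the sum in B. Acinar, duct, mesenchymal and endothelial genes took smaller shares of counts in B, and their part in these pathway results was not tested.

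Of 21 growth factor genes, 14 were lower and 3 higher, with a median of -3.05, which stayed at that value with Bmp5 at its bound. Wnt4 stood at 151, 114, 120 and 144 CPM in B and at 12.5, 16.3, 8.32 and 15.6 CPM in N (log2 change 3.33, SE 0.21, edgeR adjusted p = 3.84e-08), and of 10 Wnt genes tested it was the single higher one against 8 lower. Tgfb2 changed by 2.48 (SE 0.13) and Vegfa, which guides vessels into islets, by 0.76 (SE 0.11). Igf2, a growth factor of fetal mesenchyme, stood at 5, 16.1, 5.61 and 9.09 CPM in B and at 201, 248, 127 and 234 CPM in N (log2 change -4.50, SE 0.41). Bmp5 had no counts in B and 259 in N, at least 76.8-fold lower with a floor of 3 counts over the B group.

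Rest, the repressor of neuronal genes, stood at 4.11, 8.43, 3.96 and 4.71 CPM in B and at 55.5, 45.1, 55.7 and 57.3 CPM in N (log2 change -3.33, SE 0.29, edgeR adjusted p = 6.28e-07). Of the 16 genes on a list of Rest and neuronal RNA-binding proteins, 6 were higher and 3 lower (37.5% and 18.8%, against 29.7% and 30.5% of all genes tested), with Celf3 at 3.56 (SE 0.22) and Celf4 at 3.27. Of 26 synaptic and axon guidance genes, 6 were higher and 11 lower (23.1% and 42.3%), and the median of -0.25 turned to 0.29 with library totals alone. Nxph1, a neurexin ligand, changed by 6.22 (SE 0.18), while the guidance genes Nrp1 and Slit2 were lower at -3.63 and -4.54.

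Imprinted genes moved in both directions, with 7 of 25 higher and 14 lower and a median of -1.35. These were 28% and 56%, against 29.7% and 30.5% of all genes tested. Peg10, a paternally expressed gene derived from a retrotransposon, stood at 441, 392, 353 and 655 CPM in B and at 15.5, 22.8, 11.3 and 22.6 CPM in N (log2 change 4.67, SE 0.31, edgeR adjusted p = 5.29e-08). Gnas, which encodes the stimulatory G protein alpha subunit, was among the 15 most abundant transcripts of B at 7486 ± 477 TPM (SD, n = 4) and changed by 1.62 (SE 0.13). Meg3, a maternally expressed noncoding RNA known from beta cells, fell by 2.26 (SE 0.52), or by 1.49 without N replicate 2. Cdkn1c, an imprinted cell cycle inhibitor, fell by 3.14 (SE 0.39).

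Cell cycle genes were modestly lower, with 16 of 27 lower and 2 higher and a median of -0.47. But with library totals alone 4 were lower and 5 higher and the median was 0.07. Summed, the list took 0.155% to 0.189% of counts in B and 0.1475% to 0.171% in N, so the groups overlapped. Mki67, a proliferation marker, stood at 22.3, 29.3, 20.8 and 27.6 CPM in B and at 61.8, 62.3, 58.5 and 64.9 CPM in N (log2 change -1.31, SE 0.20, edgeR adjusted p = 0.000101). Tk1, a thymidine kinase, fell by 1.74 (SE 0.25) and Birc5, a mitotic protein, by 1.15 (SE 0.15). E2f1 and Mcm2 were the higher members, at 0.55 and 0.39, and neither stayed called without B replicate 2. Of the D cyclins, Ccnd2 was higher (log2 change 1.10, SE 0.13) and Ccnd1 and Ccnd3 lower, at -1.48 and -1.05.

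Of 24 genes of protein folding and stress signalling in the endoplasmic reticulum, 21 were lower and 1, the stress sensor Ern1, higher, with a median of -0.78, and with library totals alone 8 were lower and 2 higher. P4hb, a protein disulfide isomerase, stood at 1105, 1340, 1214 and 939 CPM in B and at 3914, 3394, 4026 and 4318 CPM in N (log2 change -1.77, SE 0.14, edgeR adjusted p = 2.81e-07). Hspa5, the chaperone BiP, fell by 0.65 (SE 0.16) and was not called with library totals alone. The acinar share of counts, in B 24.4% of its N level, was lower along with these genes, and its part in the result was not tested.

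Ribosomal protein genes were lower in 29 of 30 on the list, with a median of -0.91, and in 71 of the 73 Rpl and Rps genes tested, whereas with library totals alone 17 of the 30 were lower. Rps20 stood at 60, 63.1, 54.8 and 49.9 CPM in B and at 122, 165, 119 and 112 CPM in N (log2 change -1.18, SE 0.13, edgeR adjusted p = 6.87e-06). Of 13 mitochondrially encoded genes, 1 was lower, with a median of -0.13 that turned to 0.41 with library totals alone, where 5 were higher. That gene, mt-Co1 (edgeR adjusted p = 0.0361), was not called without B replicate 1, 2 or 4 or without N replicate 2 (adjusted p = 0.0562 to 0.136). Without N replicate 2, 5 mitochondrial genes were higher. Proteasome genes leaned the other way, with 17 of 47 higher and 2 lower (36.2% and 4.26%, against 29.7% and 30.5% of all genes tested).

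**Figure D4:**
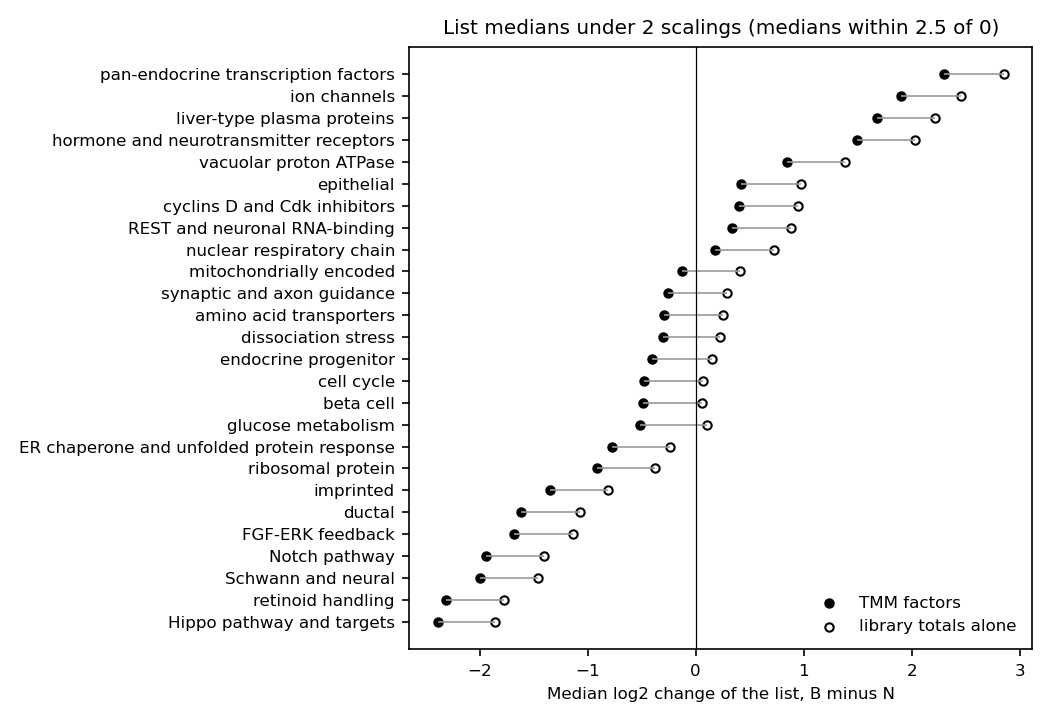
Median log2 change of B minus N for the 26 gene lists whose median lies within 2.5 of 0, with TMM factors (filled) and with library totals alone (open). Each median moves up by about the same amount, and 8 lists, from glucose metabolism at -0.52 and 0.10 to the mitochondrially encoded genes at -0.13 and 0.41, change sign. The open point of glucose metabolism counts 26 entries and the filled point 25.

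Acinar genes were lower in B but well above absence. Of 23 tested, 22 were lower, none was higher and the median was -2.64. Cpa1, a carboxypeptidase, stood at 931, 1698, 855 and 722 CPM in B and at 7692, 2506, 6497 and 7484 CPM in N (log2 change -2.52, SE 0.36, edgeR adjusted p = 4.52e-05). B replicate 2 was the highest of its group and N replicate 2 the lowest, and the groups did not overlap. Over the group, B kept between 12.3% and 17.4% of the N level of Cpa1, Cela1 and Rbpjl, and Ptf1a, an acinar factor, was lower at -2.51. None of these defining markers was at 0 in a B library. Pnlip was the member not called, at 2.26 ± 2.59 CPM in B (SD, n = 4).

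Duct and epithelial genes did not fall as one. Of 15 ductal genes, 11 were lower and 2 higher, with a median of -1.62. Krt7, a keratin of simple epithelia, stood at 568, 537, 598 and 554 CPM in B and at 112, 118, 151 and 113 CPM in N (log2 change 2.19, SE 0.13, edgeR adjusted p = 1.82e-08). Krt19, the usual duct keratin, stood at 13.7, 28.8, 18.7 and 9.14 CPM in B and at 118, 112, 130 and 110 CPM in N (log2 change -2.73, SE 0.32). The keratins thus moved in opposite directions with no overlap. Tspan8, a tetraspanin, was the other higher gene (log2 change 2.48, SE 0.28). Of 16 general epithelial genes, 8 were higher and 2 lower, with Epcam at 0.79 (SE 0.13) and the claudin Cldn4 at 1.67 (SE 0.21), and 4 were lower without N replicate 2.

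Mesenchymal, endothelial and mesothelial genes were lower without exception among those tested. All 20 mesenchymal genes were lower, with a median of -4.52. Col1a1, the type I collagen alpha chain, stood at 124, 321, 75.5 and 199 CPM in B and at 4132, 4692, 2630 and 4930 CPM in N (log2 change -4.51, SE 0.47, edgeR adjusted p = 3.41e-06). B kept between 2.12% and 6.47% of the N level of Col1a1, Col3a1, Pdgfra and Pdgfrb, a smaller remainder than that of the acinar markers. Across families, 33 of 42 collagen genes were lower and 2 higher (Col9a2 and Col19a1), 11 of 12 matrix metalloproteinases were lower and 1, Mmp24, higher, and 21 of 27 integrins were lower and 1, Itga3, higher. Of 16 Hox genes, 15 were lower. All 7 mesothelial genes were lower as well, with a median of -5.20.

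All 16 endothelial genes were lower, with a median of -4.71 that was the same with Erg at its bound. Kdr, a VEGF receptor, stood at 2.19, 7.83, 5.91 and 0.108 CPM in B and at 123, 69, 97.1 and 58.8 CPM in N (log2 change -4.41, SE 0.71, edgeR adjusted p = 0.000133). Pecam1, an endothelial adhesion molecule, changed by -4.75, or by -6.10 without B replicate 2. Erg, an endothelial factor, had no counts in B and 105 in N, at least 31.1-fold lower. Egfl7, an angiogenic factor of vessels, stood apart from the rest of its list, with 15.9, 16.1, 13.7 and 16.5 CPM in B and 27.1, 46, 29.6 and 26.6 CPM in N (log2 change -1.06, SE 0.18). B kept 48.1% of its N level against a median of 3.75% over the list, and its level hardly varied among the B libraries while that of Kdr did.

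All 15 macrophage and leukocyte genes were lower, with a median of -3.61. Ptprc, the leukocyte antigen CD45, stood at 0.407, 0.525, 3.38 and 0.974 CPM in B and at 26.4, 23.1, 47.8 and 21.4 CPM in N (log2 change -4.48, SE 0.74, edgeR adjusted p = 0.000162), and its change was -5.58 without B replicate 3. C1qa, a complement subunit made by macrophages, stood at 51.6, 58.3, 40.4 and 51.1 CPM in B and at 104, 62.6, 103 and 108 CPM in N (log2 change -0.91, SE 0.20), and it was not called with library totals alone. B thus kept 53.4% of the N level of C1qa, while its partners in the same complex, C1qb and C1qc, were lower at -3.07 and -3.03. The cause was not tested.

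Blood cells marked the lowest end of the comparison. Hbb-bs stood at 87.6, 122, 251 and 273 CPM in B and at 47322, 109980, 87090 and 26142 CPM in N (log2 change -8.53, SE 0.76, edgeR adjusted p = 8.28e-07). N varied several-fold from library to library and B stayed below all of it. Of 12 erythroid genes tested, 11 were lower, with a median of -8.06, or of -7.80 with Hbb-y at its bound. Hbb-y, an embryonic globin, had no counts in B and 667 in N, at least 198.0-fold lower. Klf1, an erythroid factor at 1.24 ± 0.334 CPM in N (SD, n = 4), was not called, although every B library was below every N library for it.

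All 9 granulocyte and mast cell genes tested were lower, with a median of -9.32 by the fit and of -7.73 with Prg2, Elane and Fcer1a, all at 0 in B, at their bounds. Members with no or almost no counts in B, Ngp and S100a8 among them, passed the filter on low counts only through other groups. A call of higher was therefore not open to them, and their direction is no separate result. Ngp, a neutrophil granule protein, had 1 count over the B libraries and 4076 over the N libraries, a scaled ratio of 3630 with a 95% counting interval of 651 to 143000. S100a8, a calprotectin subunit, had 2 counts against 5014, a ratio of 2230 with an interval of 617 to 18400. These intervals cover counting error only. Of 12 Schwann and neural genes, 5 were lower and none higher (41.7% and 0%, against 30.5% and 29.7% of all genes tested). The share lower was not far from that of all genes, and 9 were lower without B replicate 2.

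**Figure D5:**
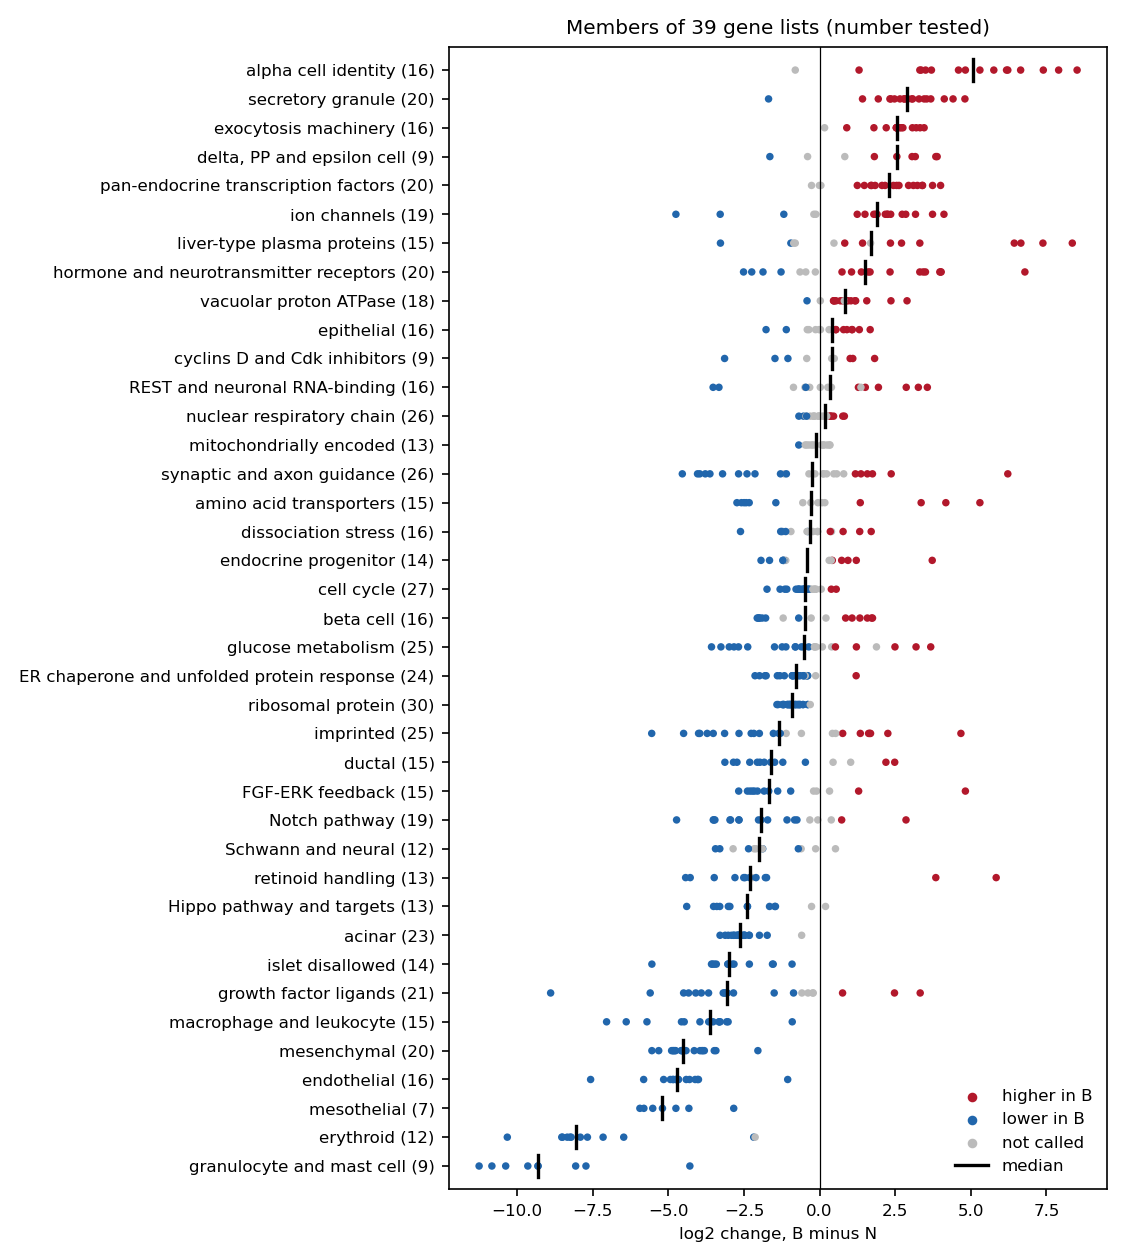
Log2 change of B minus N for each tested member of 39 gene lists, ordered by list median (black bar), with red for higher, blue for lower and grey for not called. Alpha identity genes lie at the top with a median of 5.06 and blood cell genes at the bottom; fitted changes of genes at 0 in one group, such as Hbb-y, have no fixed size.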

How the data were processed

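RNA was measured in 12 libraries of sorted mouse pancreas cells, with the RNeasy mini plus and SMARTER mRNA-Seq kits per the labels' protocols. The authors' values for each gene are estimated counts and TPM, per the file headers, in one table on GRCm39 that includes the reporter sequences and another on mm10. The submitters' processing notes name the tools STAR (2.5.2b) and DRAGEN and these builds. Which of them made which table, the counting of shared reads and the use of strand are not given in the sources used here. A further 48 columns of per-sample values were not used.

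Estimated counts were rounded, a change of at most 0.000286% in any library total. The filter filterByExpr kept 17230 of 55417 genes, and TMM factors were 0.732 to 0.81 in N and 1.1 to 1.14 in B. Genes with no counts in B (such as Bmp5, Erg and Hbb-y) or in N (Apoh) passed this filter only through other groups. Such genes could be called in a single direction only. All 12 libraries were fitted by group with the quasi-likelihood test of edgeR 4.0.16 in R 4.3.3, and p-values of B against N were adjusted by Benjamini-Hochberg over all genes at 0.05. SE were derived from the F statistic. They cover the spread between these 4 libraries a group. On simulated counts of B against N (16953 genes, 50 changed at each size) the test recovered 6% of log2 changes of 0.5, 42% of 1, 68% of 2 and 80% of -2, and called 8 of 16758 unchanged genes, so a gene not called may still differ. In the data 60.2% of genes were called, a far larger part than was changed in the simulation. The adjustment was therefore stricter in the simulation, so these rates do not give the recovery in the data. Deposited TPM served only to order levels. No pair of libraries within a group agreed within sampling noise.

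Alternatives were RLE, upper quartile and no factors, scaling without blood and acinar genes, DESeq2 1.42.0, other filters, a fit of B and N alone, a replicate block, a test against a 2-fold change, counts of the mm10 table, and the omission of any single library.

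Replicate numbers were taken as pairs, because the labels give replicates from different mothers, with pancreata sorted into the groups, and Y-linked genes followed one pattern per number (112, 44.2, 0.191 and 72.2 CPM in N, 139, 48.8, 0.192 and 84.8 CPM in B). Deviations of same-numbered N and B libraries correlated across genes at 0.24, 0.05, 0.34 and 0.17, and the block was kept as an alternative. N replicate 2 correlated more with a B library of another number, at 0.08, so these values do not bear out that pair. The other N replicates correlated most with their own number.

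The groups, the 39 gene lists (675 of 689 memberships tested) and the 25 families were chosen with earlier results of these data known. Named genes were Gcg and the reporter, the cell type markers, the 12 highest and 12 lowest called genes with no overlap and a mean log2 CPM of at least 3, the first gene and the 3 smallest p of each list, the smallest p of each family in each direction, and the 15 highest TPM in B. Other members of a list were named after their values were seen. Not all named genes are printed, and some are not reported here.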

Additional observations from a re-analysis of the deposited data

Results flagged for a closer look

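Of 102 groups of 4 libraries examined for genes and shares that the text prints, 11 held a library far from the other 3, by the size of its gap to the nearest of them against the group's range. About 1 in 20 groups would be marked by chance. N replicate 2 was the marked library for Nucb2 (the lowest at 97.3 CPM), Ldha (the lowest at 834 CPM), Rest (the lowest at 45.1 CPM), C1qa (the lowest at 62.6 CPM) and Egfl7 (the highest at 46 CPM), and for the share of alpha identity genes (the lowest at 0.0515%). This library also had the highest erythroid share of counts in N, 23%, and the lowest acinar share, 8.13%. B replicate 2 was marked for Ins2 (the highest at 1148 CPM) and Rest (the highest at 8.43 CPM), and it had the highest acinar share of B, 4.71%. The remaining marks were Ghrl in N replicate 1 (the lowest at 11.8 CPM), Notch3 in N replicate 3 (the lowest at 29.3 CPM) and Krt7 in N replicate 3 (the highest at 151 CPM). The part of blood or acinar content in these values was not tested.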

How the results depend on the processing

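The counts of 5118 genes higher and 5257 lower stayed within 1.5 times of these values under RLE and upper quartile factors, scaling without blood and acinar genes, DESeq2, both other filters, the fit of B and N alone, the replicate block (5223 higher and 5429 lower) and the mm10 table. Leaving out 1 library at a time gave 4779 to 5285 higher, 4903 to 5562 lower and 9690 to 10847 called in all. They moved with library totals alone (8263 higher and 3407 lower) and, since it asks for a larger change, with the test against a 2-fold change (1760 higher, 2724 lower and 4484 in all). Library totals alone leave out the TMM factors, which were 0.732 to 0.81 in N and 1.1 to 1.14 in B. What made these factors differ was not tested. Of 218 named genes, none changed direction past the threshold, 36 changed their call in at least 1 setting, 31 of them in the test against a 2-fold change and 9 with library totals alone, and the replicate block changed 2, among them Neurog3. The median of 8 of 39 lists changed sign with a scaling. Without erythroid and globin genes in the total, the shares of counts of the other 38 lists rose by 16% to 20.5% of their value in N and by at most 0.1% in B. This was more than the replicate SD for 27 lists in N and 0 in B. Of the shares printed, these were in N alpha identity (0.0689%), endothelial (0.0802%), leukocyte (0.0916%), ductal (0.341%), cell cycle (0.183%), FGF and ERK feedback (0.0506%) and retinoid handling genes (0.034%). The depth of B, 16216967 counts at its lowest, limits what can be said of genes with few counts, and a gene at 0 in B may stand at up to 0.0306 CPM over the group by a floor of 3 counts.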
